A study of Mus musculus with 10 samples.

Results

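The RNA of 10 genes of ferritin and iron handling was followed in orthotopic pancreatic tumors of mice that drank dextrose water and of mice that drank regular water. The genes were chosen by name for their roles in iron storage, uptake, export, sensing and heme breakdown, and were found by their mouse Ensembl identifiers among 55359 genes. All 10 members were among the 24560 genes tested, which are those that averaged 1 or more normalized counts. Normalized counts are the reads of a gene divided by a size factor of its tumor.

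KPC K8484 cells, a mouse pancreatic cancer line with a mutant Trp53 allele and Pdx1-Cre that also expressed luciferase, were injected into the pancreas of immunocompetent C57BL/6 mice (C57BL/6 J in the methods) at 10 weeks of age. All tumors came from this line, so they represent 1 line. The 5 control tumors (CTRL) grew in normoglycemic mice on regular water, and the 5 D30 tumors grew in mice made hyperglycemic by free access to water with 30% dextrose, for 14 days by the study's description. Whole tumors were sequenced, so each value sums malignant, stromal, blood and pancreatic cells, and fewer cells of a type cannot be told apart from less RNA per cell. Mice of both sexes were used, and the sex behind each tumor was not used here. The tumors are named by the columns of the deposited table (N1, N2, N4, N5 and N6 for CTRL, T1, T2, T4, T5 and T7 for D30), because the labels number their replicates in another way. Titles of the samples speak of PDX, whereas their source is given as KPC K8484 cells.

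Cells take up transferrin-bound iron through the receptor encoded by Tfrc, reduce and move it into the cytosol, store it in ferritin shells built of heavy and light chains, and release it through ferroportin. The iron regulatory proteins encoded by Aco1 and Ireb2 bind a short hairpin, the iron-responsive element, when iron is scarce. Bound at the 5′ end of an mRNA they hold back its translation, and bound at the 3′ end of Tfrc mRNA they slow its decay, so RNA levels report on these arms unequally. Heme oxygenase 1, the product of Hmox1, frees iron from heme and is known for its strong induction by heme and oxidants.

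Hairpins of the canonical form are shown with their place in the mRNA. The search took the letters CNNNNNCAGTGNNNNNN on the sense strand of annotated untranslated exons, with a loop whose last base is not G and the 5 bases after the first C able to pair (G with T allowed) with the last 5. It found a match in the 5′ untranslated region (UTR) of Ftl1, Fth1 and Slc40a1 and 4 separate matches in the 3′ UTR of Tfrc. Over all genes, 0.11% of 20899 had a match in a 5′ UTR and 0.476% of 21022 in a 3′ UTR. The sequences below are from GENCODE M21 on GRCm38, 5′ to 3′ along the mRNA, with 6 flanking bases on each side, and capitals mark the bulged C and the 6-base loop.
Ftl1, 5′ UTR, chr7:45459779-45459807, minus strand: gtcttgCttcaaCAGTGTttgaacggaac
Fth1, 5′ UTR, chr19:9982732-9982760, plus strand: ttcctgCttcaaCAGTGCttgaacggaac
Slc40a1, 5′ UTR, chr1:45925465-45925493, minus strand: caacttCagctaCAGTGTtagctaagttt
Tfrc site A, 3′ UTR, chr16:32631219-32631247, plus strand: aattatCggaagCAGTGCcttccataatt
Tfrc site B, 3′ UTR, chr16:32631598-32631626, plus strand: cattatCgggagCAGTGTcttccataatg
Tfrc site C, 3′ UTR, chr16:32631663-32631691, plus strand: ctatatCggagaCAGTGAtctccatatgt
Tfrc site D, 3′ UTR, chr16:32631710-32631738, plus strand: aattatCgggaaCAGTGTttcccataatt
The remaining 6 members had no match to these letters in these regions. All 5 pairs were required, so hairpins with a mismatch or a further bulge there would be missed. No match therefore does not mean that a gene lacks such an element. A match is a description of the sequence and says nothing of binding in these tumors.

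Recovered reads numbered 29915331 to 42122304 per CTRL tumor and 29192261 to 37126175 per D30 tumor. Tests used limma's moderated test on log2(normalized count + 1) with Benjamini-Hochberg (BH) adjustment over all tested genes, and genes with an adjusted p under 0.05 are spoken of as called. Over all genes 678 were called (2.76%), 344 higher in D30 (1.4%) and 334 lower (1.36%). With library-size scaling the split was 240 higher of 866. The D30 tumor T4 stood apart. The median deviation of genes under 1500 bp less that of genes over 5000 bp was 1.25 (log2) in T4 and -0.63 to 0.25 in the other tumors, and its part in the results was not tested. The D30 tumor T5 held 184004 normalized counts of 8 erythroid markers, mostly hemoglobin, against 4093 to 12252 in the others. The members that T4 and T5 moved most are given with and without them. Epithelial keratins marked the tissue as labelled, with Krt8 at 60374 to 179473 normalized counts over the 10 tumors, while Epcam lay at 0 to 191.

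**Figure D1:**
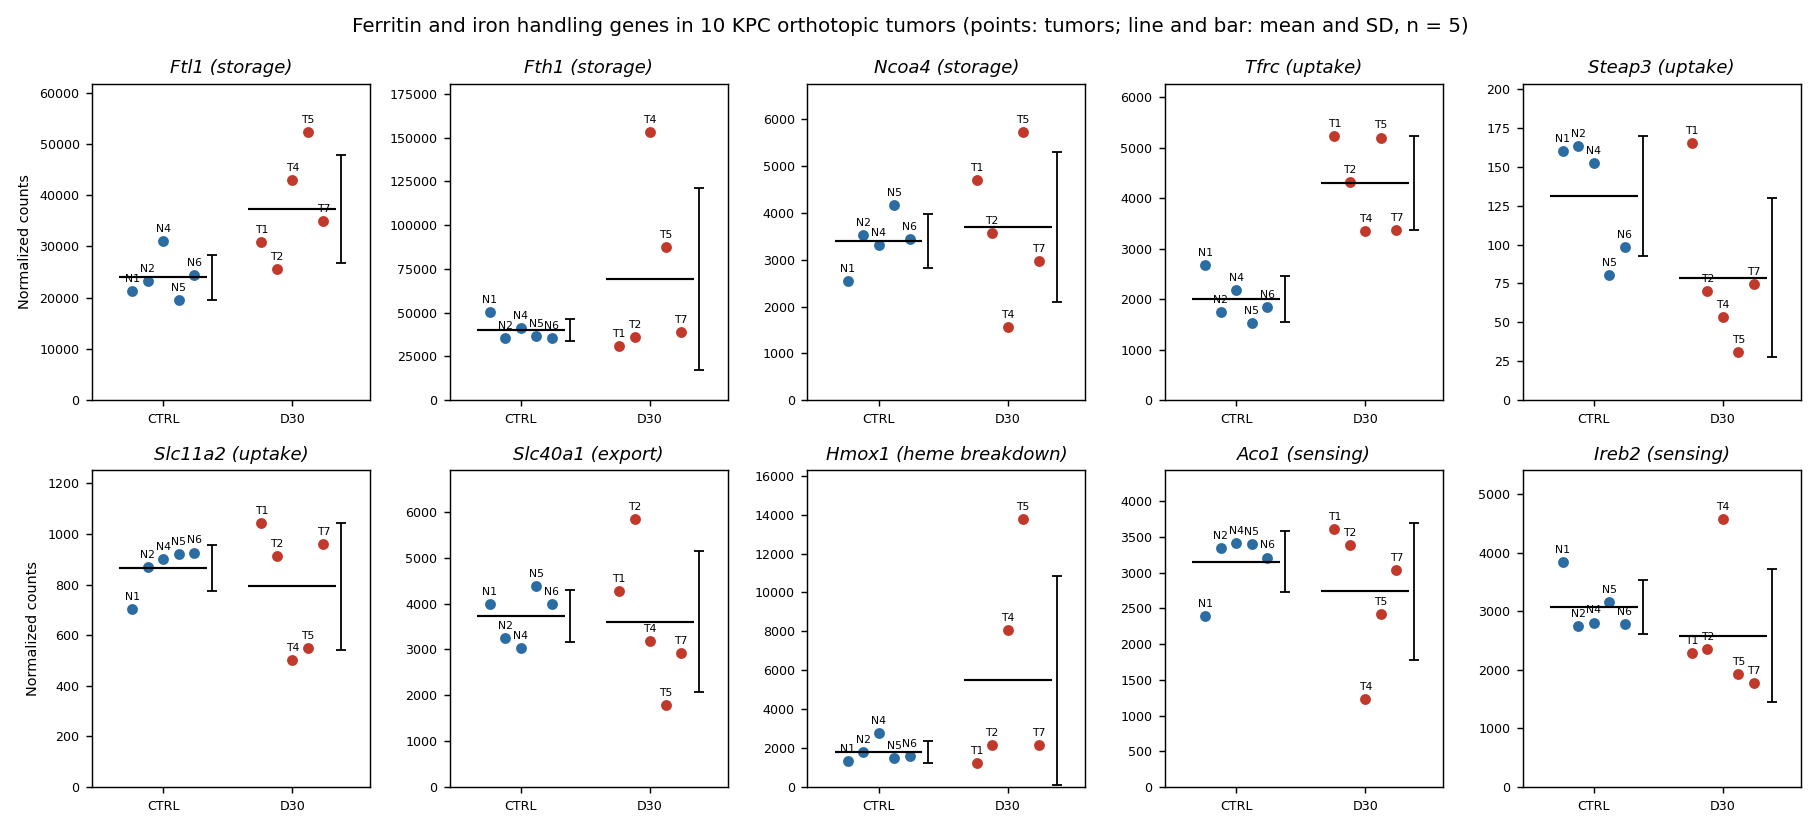
Normalized counts of the 10 members (y axes, linear, one scale per gene) in each CTRL and D30 tumor, with the mean as a line and the SD as a bar (n = 5). Tfrc is the only member whose groups do not overlap, 1532 to 2685 in CTRL and 3355 to 5236 in D30, and T4 and T5 lead the spread of Fth1 and Hmox1.

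Tfrc, the receptor that brings transferrin-bound iron into the cell, was the only member called. It rose 2.15-fold in D30 tumors, from 1997 ± 452 to 4295 ± 929 normalized counts (mean ± SD, n = 5 each). The other 9 members did not pass the test. Read against the 1.4% of all genes that were higher, 1 of 10 members was called higher and 0 lower, and the median log2 fold change was -0.065 over the members and -0.065 over all genes. At an unadjusted p under 0.05, 2 members were higher (Tfrc and Ftl1) and 0 lower, where all genes gave 7.79% and 9.54% (17.3% in all). DESeq2 on the recovered reads called 2 members, both higher, where it called 8.76% of the 22330 genes it gave an adjusted p (5.08% higher and 3.68% lower).

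Among the uptake genes, Tfrc (ENSMUSG00000022797, chr16:32608920-32632794 on GRCm38) was at 2685, 1739, 2189, 1532 and 1841 normalized counts in the CTRL tumors N1, N2, N4, N5 and N6. It was at 5236, 4316, 3355, 5202 and 3365 in the D30 tumors T1, T2, T4, T5 and T7. Every D30 tumor lay above every CTRL tumor, as for 2.87% of all genes, where 6.19% did not overlap in either direction. The log2 fold change was 1.10 (SE 0.21, 95% interval 0.65 to 1.56; limma, BH-adjusted p = 0.0141), and Tfrc ranked 259 of all genes by p. Without T4 and T5 it was 1.11 (limma, BH-adjusted p = 0.00368). The call was lost without the CTRL tumor N2, at 1.06 (limma, BH-adjusted p = 0.0549), and with library-size scaling, at 0.88 (limma, BH-adjusted p = 0.0502), where the median of all genes moved to -0.27.

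Epithelial marker RNA was also higher in D30 tumors. The summed normalized counts of 7 epithelial markers were 209932 to 335568 in CTRL and 341412 to 475748 in D30 and did not overlap, although 0 of the 7 were called and 6 were higher and 1 lower (Epcam) at an unadjusted p under 0.05. Per 1000 counts of these markers, Tfrc was at 6.52 to 12.4 in CTRL and 8.09 to 12.6 in D30, so the groups overlapped. The log2 difference of this quotient was 0.36 (two-sided exact permutation test, p = 0.111, BH-adjusted p = 0.222 over the 4 quotients compared). This quotient was chosen after the data were seen, and the share of epithelial cells in the rise of Tfrc cannot be told apart from a rise per cell.

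**Figure D2:**
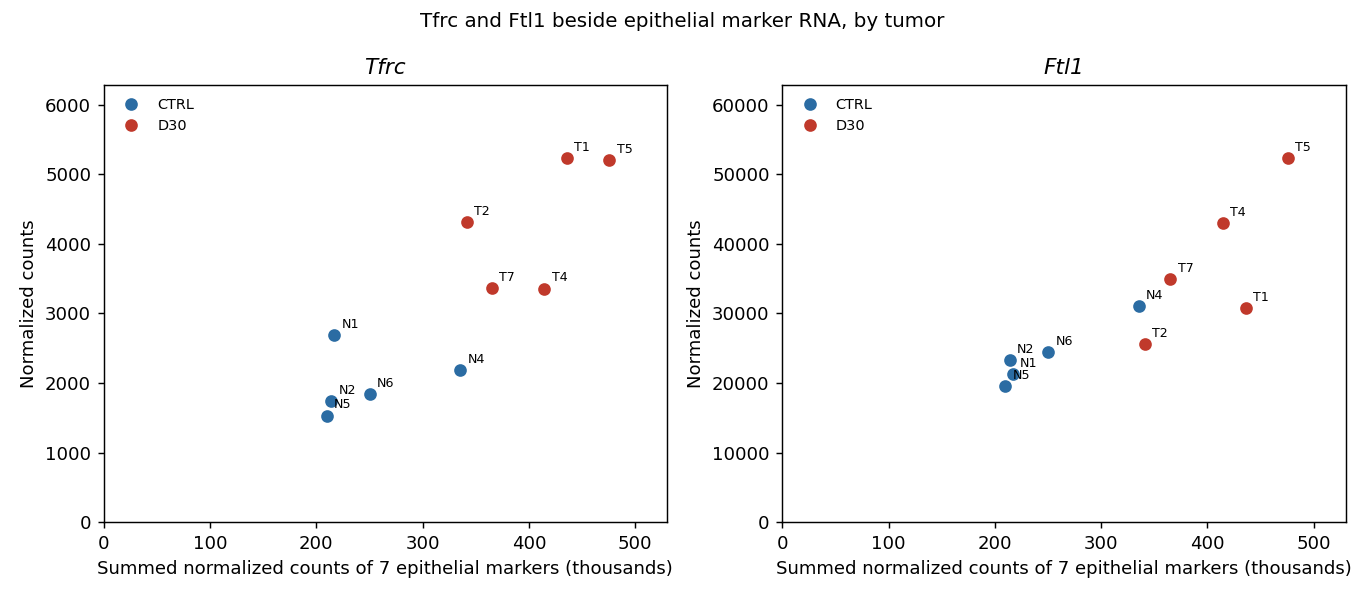
Normalized counts of Tfrc and Ftl1 (y axes) against the summed normalized counts of 7 epithelial markers (x axes, in units of 1000), with a point for each CTRL (blue) or D30 (red) tumor. The D30 tumors lie right of the CTRL tumors, from 341412 counts on, and Ftl1 runs from 19608 in N5, with the lowest marker sum, to 52369 in T5, with the highest.

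The other uptake members did not pass the test. Steap3, a ferrireductase that prepares endosomal iron for export to the cytosol, was at 80.6 to 163 normalized counts in CTRL and 30.9 to 166 in D30. T1 held the highest value of all tumors while the other 4 D30 tumors lay below the lowest CTRL tumor. Its log2 fold change was -0.88 (SE 0.42; limma, BH-adjusted p = 0.296), and -0.40 without T4 and T5. Slc11a2, which carries ferrous iron out of endosomes and across the gut lining, was at 705 to 927 in CTRL. In D30, T4 and T5 were at 501 and 548 and the other 3 tumors at 913 to 1044. Its log2 fold change was -0.18 (limma, BH-adjusted p = 0.744) and turned to 0.17 without T4 and T5. Its annotated exons overlap those of Gm5475 on the opposite strand by 402 bp, and whether reads were counted by strand is not given in the sources used here.

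The ferritin genes held the most RNA per length of the 10 members. Ferritin light chain Ftl1 (chr7:45457944-45459884 on GRCm38) was at 21314, 23340, 31106, 19608 and 24433 normalized counts in CTRL and at 30827, 25636, 42998, 52369 and 34989 in D30, in the tumor order given for Tfrc. The groups overlapped, since N4 exceeded T1 and T2. The log2 fold change was 0.61 (SE 0.23, 95% interval 0.12 to 1.11; unadjusted p = 0.0185 and BH-adjusted p = 0.185 by limma), which did not pass the test, and was 0.35 without T4 and T5. Per 1000 epithelial marker counts, Ftl1 was at 92.7 to 109 in CTRL and 70.7 to 110 in D30, a log2 difference of -0.13 (exact permutation test, p = 0.381, BH-adjusted p = 0.381). The 5 CTRL quotients lay close together although Ftl1 itself had a CV of 18.4% there.

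Ferritin heavy chain Fth1, the ferroxidase subunit (chr19:9980598-9985098 on GRCm38), was at 50386, 35446, 41454, 36657 and 35598 normalized counts in CTRL. In D30 it was at 30816, 36236, 153247, 87459 and 38884. T4 and T5 were high, and the other 3 D30 tumors lay from below the lowest CTRL tumor to within the CTRL range. The log2 fold change was 0.52 (SE 0.39; limma, BH-adjusted p = 0.538) and turned to -0.17 without T4 and T5 (BH-adjusted p = 0.609), so its sign rested on these tumors. Both ferritin chains together took 0.181% to 0.228% of the reads in CTRL tumors, 0.457% in T4, 0.365% in T5 and 0.182% to 0.216% in the other D30 tumors.

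Reads of ferritin genes can be shared with near-identical copies in the genome, so their levels are uncertain to that extent. The copy Ftl1-ps1 was at 72.6 to 148 normalized counts in CTRL and 105 to 217 in D30, far below Ftl1. The copies Ftl1-ps2, Ftl2-ps and Fth-ps2 did not exceed 5.78, and Fth-ps3 was listed at 0. Exons of Ftl1 also overlap the miRNA gene Gm22133 on the same strand by 109 bp and Gm10252 on the opposite strand by 355 bp. Ncoa4, the receptor that delivers ferritin to the lysosome, was at 2553 to 4172 in CTRL and 1563 to 5734 in D30, with T4 lowest and T5 highest of all tumors. Its log2 fold change was 0.013 (SE 0.30; limma, BH-adjusted p = 0.991), and 0.13 without T4 and T5.

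**Figure D3:**
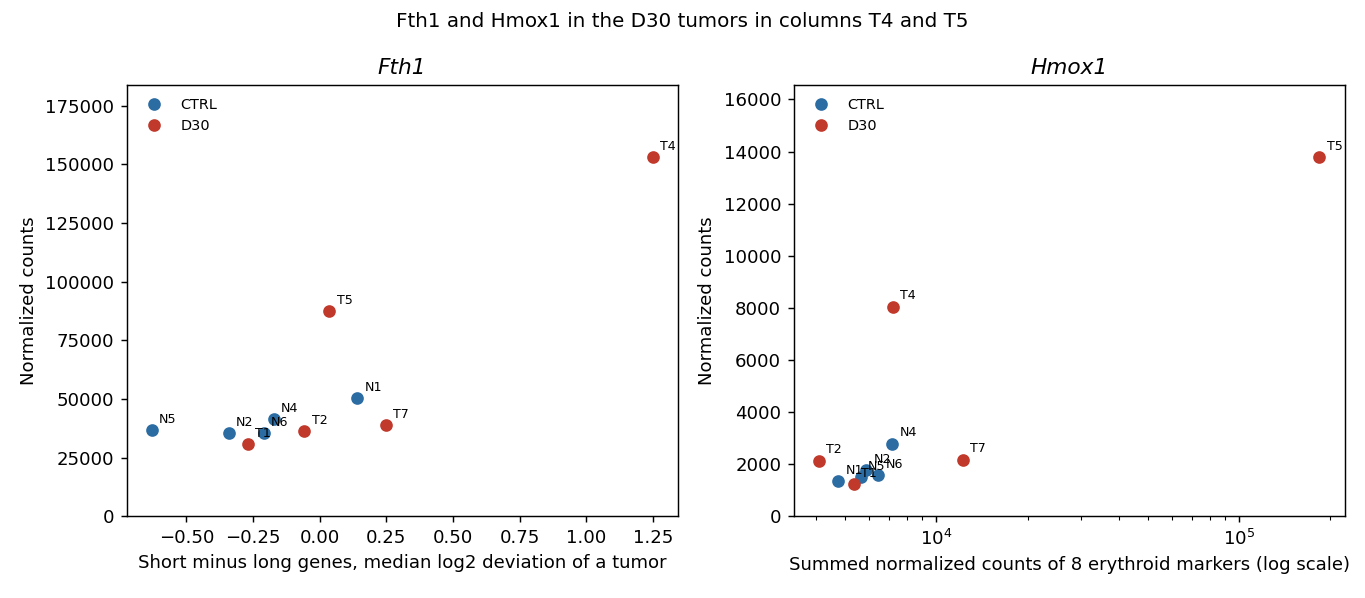
Left, normalized counts of Fth1 (y axis) against the median log2 deviation of short less long genes of each tumor (x axis). Right, normalized counts of Hmox1 (y axis) against summed normalized counts of 8 erythroid markers (x axis, log scale), CTRL in blue and D30 in red. On the left only T4 (1.25) stands far to the right, with T5 at 0.036. On the right only T5 (184004) does, with T4 at 7177. T4 and T5 hold the 2 highest counts of each gene.

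The exporter and the heme-degrading enzyme did not pass the test either. Slc40a1, the gene of ferroportin, the known iron exporter of mammalian cells, was at 3991, 3246, 3026, 4380 and 4001 normalized counts in CTRL and 4279, 5854, 3181, 1793 and 2927 in D30. T2 was the highest and T5 the lowest of the 10 tumors, and the groups overlapped. Its log2 fold change was -0.14 (SE 0.27, 95% interval -0.74 to 0.45; limma, BH-adjusted p = 0.837) and was 0.082 without T5. Ferroportin is abundant in macrophages that recycle iron, and the summed counts of 8 macrophage markers were 24704 to 37442 in CTRL and 15204 to 33575 in D30, with Csf1r called lower. Per 1000 of those counts, Slc40a1 was at 94.8 to 177 in CTRL and 94.7 to 319.5 in D30 (log2 difference 0.45, exact permutation test, p = 0.278, BH-adjusted p = 0.370).

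Hmox1 was at 1342, 1772, 2785, 1504 and 1589 normalized counts in CTRL and 1221, 2134, 8051, 13797 and 2177 in D30. T4 and T5 lay above all others, while T1, T2 and T7 lay below or within the CTRL range. The log2 fold change was 1.06 (SE 0.55, 95% interval -0.13 to 2.25; limma, BH-adjusted p = 0.349) and fell to 0.038 without T4 and T5. DESeq2 on the recovered reads called it at 1.61 (BH-adjusted p = 0.0497). T5 also held the highest erythroid sum, with Hba-a1 at 83007 against 1633 to 6164 elsewhere, while the erythroid genes Ermap and Klf1 were at 0 and 12.6 in T5. T5 had the highest neutrophil sum too, 16081 over 8 markers against 680 to 7463, and T4 had 3315. The part of blood or immune cells in the Hmox1 values was not tested.

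The sensors Aco1 and Ireb2, which encode the iron regulatory proteins, showed no call. Aco1 was at 2401 to 3412 normalized counts in CTRL and 1228 to 3611 in D30, with T4 lowest (log2 fold change -0.29, SE 0.27, and 0.093 without T4 and T5; limma, BH-adjusted p = 0.640 over all tumors). Ireb2 was at 2743 to 3837 in CTRL and 4586 in T4. The other 4 D30 tumors, at 1783 to 2357, lay below every CTRL tumor. Its log2 fold change was -0.32 (SE 0.24; limma, BH-adjusted p = 0.538), and without T4 it was -0.55 and just passed the test (BH-adjusted p = 0.0498), where 6.43% of all genes were called.

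**Figure D4:**
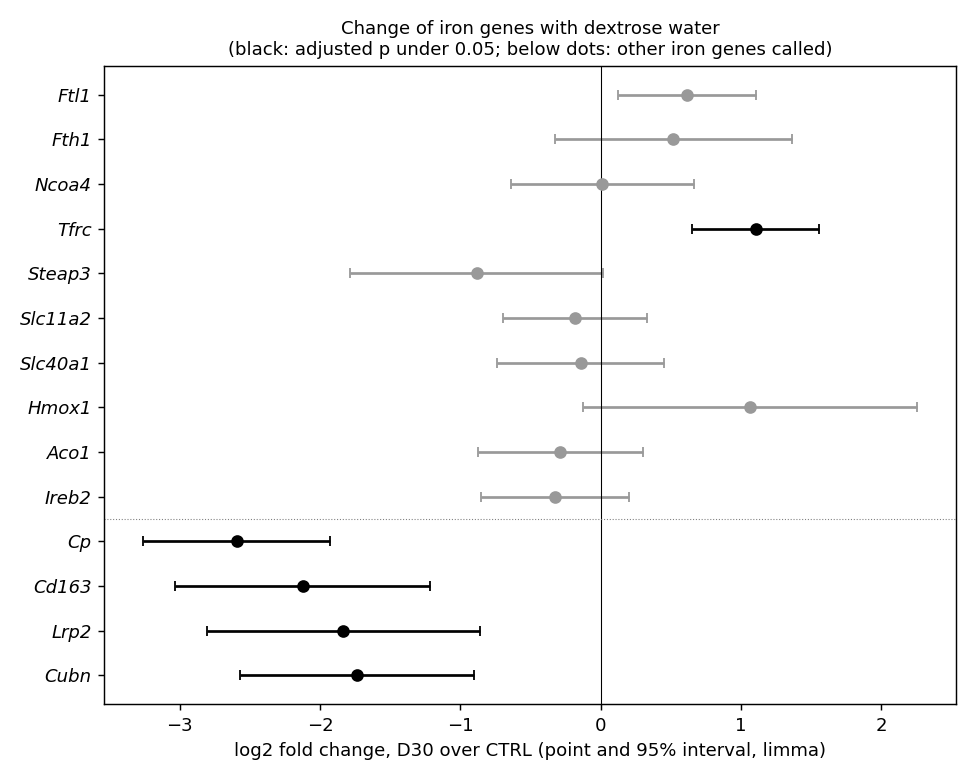
Log2 fold change of D30 over CTRL (x axis) with its 95% interval from limma for the 10 members and, under the dotted line, the 4 other iron genes that were called. Black marks an adjusted p under 0.05, with Tfrc at 1.10 the only black member and Cp, Cd163, Lrp2 and Cubn from -2.60 to -1.74.

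Within a tumor, ratios between members do not depend on the scaling of the libraries. Of 4 ratios compared, Tfrc to Slc40a1, that is uptake over export, differed between the groups. It was 0.673, 0.536, 0.723, 0.350 and 0.460 in CTRL and 1.22, 0.737, 1.05, 2.90 and 1.15 in D30. The groups did not overlap, although T2 lay close to N4. The log2 difference was 1.25 (exact permutation test, two-sided, p = 0.00794, below which 5 against 5 cannot go; BH-adjusted p = 0.0317 over the 4 ratios). Tfrc, whose rise was already known, is the numerator, so this ratio is not a separate finding. The difference in medians gave 1.10 (exact permutation test, BH-adjusted p = 0.159). Tfrc to Fth1 differed by 0.59 (exact permutation test, BH-adjusted p = 0.587), with T4 lowest of all tumors, and by 1.28 without T4 and T5 (BH-adjusted p = 0.0476). Ftl1 to Fth1 differed by 0.096 and Aco1 to Ireb2 by 0.037 (exact permutation test, BH-adjusted p = 0.976 for both). Without T4 the latter differed by 0.53 (BH-adjusted p = 0.0212). T4 and T5 held the highest counts of the denominator Fth1, and T4 those of the denominator Ireb2. They were also the lowest D30 tumors in the ratio concerned, and T4 and T5 were left out together after the data were seen. The p values of these subsets are therefore no independent support for a change.

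Levels can be compared between members only per length, here as normalized counts per kb of all annotated exons joined, which lowers genes with long exons in seldom-used transcripts. In CTRL tumors Ftl1 led at 17881 ± 3287 per kb, followed by Fth1 at 11504 ± 1830 and Hmox1 at 1027 ± 327. Aco1 followed at 702 ± 95.6, Slc40a1 at 414 ± 63.2, Ncoa4 at 363 ± 61.8, Ireb2 at 324 ± 48.6 and Tfrc at 323 ± 73.1. Slc11a2 at 136 ± 14.5 and Steap3 at 22.9 ± 6.75 were lowest. The order of Ftl1 and Fth1 rests on their joined exon lengths, 1340 and 3469 bp. Before this division Fth1 held more counts than Ftl1 in every CTRL tumor, with Ftl1 to Fth1 at 0.423 to 0.750. Which chain had more RNA is therefore left undecided. The neighbors from Slc40a1 to Tfrc differed by less than their SDs, and Hmox1 and Aco1 by less than the SD of Hmox1. In D30 tumors Tfrc stood at 694 ± 150 per kb, above Aco1 at 609 ± 213, Slc40a1 at 401 ± 171 and Ncoa4 at 396 ± 171. For 9 of the 10 members the CV was larger in D30 than in CTRL, with Tfrc the exception at 22.6% and 21.6%. In Hmox1 it went from 31.8% to 98.3%. In each of these 9 members T4 or T5 held the highest or the lowest D30 value. The share of all genes with a larger CV in D30 was not computed, so the wider spread is not read as particular to the members.

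In the wider iron pathway, 87 of 90 other genes were tested (Ftmt, Hamp and Hfe2 were not), and 0 were called higher and 4 lower, beside 1.36% lower over all genes. Of these 87, 5 were higher and 8 lower at an unadjusted p under 0.05, near the 7.79% and 9.54% of all genes, and their median log2 fold change was 0.012. DESeq2 called 3 higher (Alad, Cpox and Slc25a28) and 5 lower, a share near its 8.76% over all genes. Among 8 tested genes of export and the hepcidin axis, Cp, the ferroxidase ceruloplasmin that loads exported iron onto transferrin, was called. It was at 5563, 5959, 3008, 8686 and 3707 normalized counts in CTRL and 537, 621, 1240, 994 and 965 in D30. No D30 tumor reached the lowest CTRL tumor, as for 3.32% of all genes. The log2 fold change was -2.60 (SE 0.31; limma, BH-adjusted p = 0.00140), and it was called in all 22 other settings and subsets of tumors tried. In the same group Bmp6, a ligand that raises hepcidin, was lower with no overlap, at 47.9 to 82.4 and 21.6 to 39.4, and did not pass (log2 fold change -1.02; limma, BH-adjusted p = 0.115).

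Cd163, the macrophage receptor for hemoglobin bound to haptoglobin, was the only gene called among 13 of heme turnover and transport. It was at 272, 416, 329, 265 and 259 normalized counts in CTRL and 35.0, 180, 106, 36.6 and 61.8 in D30, with no overlap (log2 fold change -2.12, SE 0.42; limma, BH-adjusted p = 0.0174). Of 5 markers of iron-recycling macrophages, Cd163 was the only one called, Clec4f was at 0 in all tumors, and their sum was 315 to 497 in CTRL and 36.6 to 278 in D30. Cd163 made up most of this sum in every tumor, so the sum largely repeats it. The 4 tested markers all had a log2 fold change below 0. Yet D30 tumors held the highest values of Vsig4 and Timd4 (72.2 and 16.0 in T2) and of Spic (60.1 in T4). Per 1000 macrophage marker counts, Cd163 was at 7.28 to 12.1 in CTRL and 2.12 to 9.81 in D30 (log2 difference -1.55, exact permutation test, p = 0.0238, BH-adjusted p = 0.0952). In the same group Blvrb, which reduces biliverdin and flavins, was high in T4 (log2 fold change 0.68; limma, BH-adjusted p = 0.364), and without T4 its log2 fold change was 0.29.

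Of 9 other uptake genes, Cubn and Lrp2, which encode the endocytic receptors cubilin and megalin, were called lower. Cubn was at 339 to 720 normalized counts in CTRL and 59.0 to 263 in D30, with no overlap (log2 fold change -1.74, SE 0.39; limma, BH-adjusted p = 0.0301). Lrp2 was at 2596 to 4081 in CTRL, and T1 at 2763 lay among the CTRL tumors while the other 4 D30 tumors lay at 383 to 1573 (log2 fold change -1.83, SE 0.45, and -1.14 without T4 and T5; limma, BH-adjusted p = 0.0491 over all tumors). Lrp2 kept its call in 9 of the 22 other settings and subsets, Cubn in 17 and Cd163 in 21. Exons of Cubn overlap Gm13270 by 368 bp and those of Cp overlap Hps3 by 108 bp, both on the opposite strand.

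**Figure D5:**
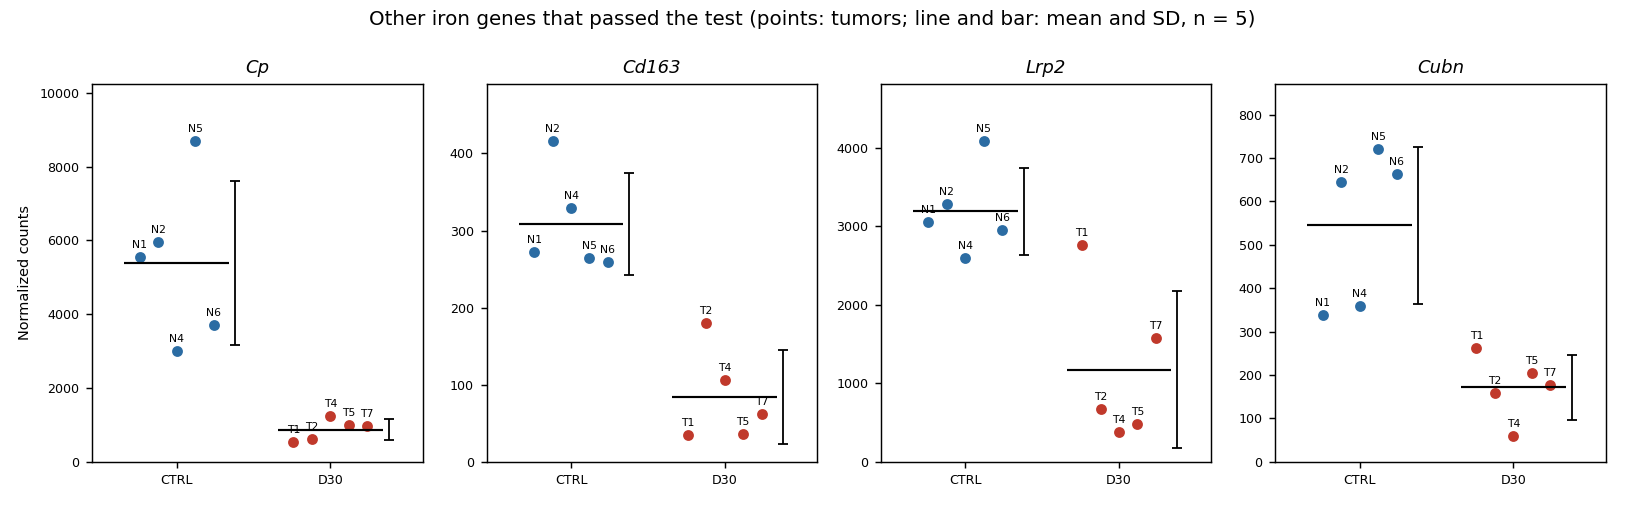
Normalized counts (y axes, linear, one scale per gene) of Cp, Cd163, Lrp2 and Cubn in each CTRL and D30 tumor, with the mean as a line and the SD as a bar (n = 5). Groups do not overlap for Cp, Cd163 and Cubn, while T1 (2763) lies within the CTRL range of Lrp2.

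The other role groups held no call. None of 6 tested storage and chaperone genes passed, and all 6 had a log2 fold change above 0, with 1 higher at an unadjusted p under 0.05, Bola2 at 0.73, and Glrx3, its partner in handing on iron, at 0.46. Without T4, Bola2 was at 0.48 and Glrx3 at 0.16. None of 9 genes of transferrin-bound uptake passed, and 2 were lower at an unadjusted p under 0.05, Trf, the gene of transferrin itself, at -0.64 and the ferrireductase Steap2 at -0.50. Exons of Trf overlap Gm20425 on the same strand by 2108 bp. None of 10 sensing genes passed and 0 had an unadjusted p under 0.05, among them the RNA-decay factor Zfp36 at 0.90, where T5 was at 7334 counts against 487 to 1611 in the other D30 tumors (0.35 without T5), and the phosphatase gene Cdc14a at 0.40. None of 9 heme synthesis genes passed, and 2 were higher at an unadjusted p under 0.05, Cpox at 0.86 and Alad at 0.71, both enzymes of the pathway. None of 23 genes of mitochondrial import and iron-sulfur assembly passed, and 2 were higher at an unadjusted p under 0.05. There Slc25a28, the importer mitoferrin 2, was higher with no overlap, at 2220 to 3055 and 3381 to 6114 (log2 fold change 0.62; limma, BH-adjusted p = 0.116), and Nfu1, a carrier of iron-sulfur clusters, was at 0.61. Without T4 and T5, 11 of the 87 genes were called, 3 higher (Zfp36, Cpox and Slc25a28) and 8 lower, where limma called 9.97% of all genes in this subset (5.09% higher and 4.87% lower).

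Hmox1 and both ferritin genes are known targets of the transcription factor NRF2. Beside the 1.4% called higher and 1.36% called lower over all genes, 0 of 22 other NRF2 targets were called higher and 1 lower, Gclc, the catalytic subunit of glutathione synthesis, at 10848 to 19414 normalized counts in CTRL and 6315 to 7990 in D30 (log2 fold change -0.996, SE 0.185; limma, BH-adjusted p = 0.0127). Of 6 regulators of this pathway, Mafk, a small MAF partner, was called higher at 1184 to 1540 and 2464 to 4648 (log2 fold change 1.14, SE 0.20; limma, BH-adjusted p = 0.00863). Of 17 tested genes of lipid peroxide defence and ferritin turnover, Gch1, the first enzyme of tetrahydrobiopterin synthesis, was called higher at 812 to 1377 and 1919 to 6182 (log2 fold change 1.25, SE 0.31; limma, BH-adjusted p = 0.0492). T4 held the highest Gch1 value, and without T4 its log2 fold change was 0.94 (BH-adjusted p = 0.00895 by limma).

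Markers of other cell types also differed between the groups, though not always as a set. Endothelial markers summed to 10082 to 16799 normalized counts in CTRL and 4115 to 8398 in D30, without overlap and with Cdh5 called lower. Cdh5 made up most of this sum in every tumor, so the sum largely repeats it. Pecam1, Kdr, Tek and Emcn each overlapped between the groups and were not called. Of the 5 hepatocyte markers Alb and Ttr were called lower, and of the 5 islet markers Ins1 and Gcg, with Ins1 at 0 in 4 D30 tumors. The hepatocyte sum overlapped, at 16967 to 23054 in CTRL and 15282 to 31430 in D30. Most of that sum was Apob, which had a log2 fold change of 0.38 and was not called. Acinar markers were high in the CTRL tumors N2 (28119) and N6 (59772), against 144 to 6012 elsewhere. Fibroblast sums were 76308 to 135218 in CTRL and 26700 to 102388 in D30, with 0 of 7 called and 5 lower at an unadjusted p under 0.05. Muscle markers summed to 47.8 to 61.0 in CTRL and 91.6 to 109 in D30. Muscle, T cell, B cell, adipocyte, acinar, erythroid and neutrophil lists had 0 calls by limma, and at an unadjusted p under 0.05 muscle had 2 higher, neutrophil 3 higher, acinar 3 lower and T cell 1 lower. The part of these cells in the values of Cp, Cubn, Lrp2 and Slc40a1 was not tested.

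The genes most like a member over the 10 tumors, after each group's mean was taken out, were found among 12214 genes that averaged 100 or more normalized counts. These correlations describe the same libraries, depth and RNA quality and carry no test. Ftl1 was followed most closely by Sult2b1 (Pearson r = 0.988, and 0.973 over the 8 tumors without T4 and T5), Rab5c (0.979) and Ift43 (0.944). Tfrc was followed by Ncbp3 (0.860), Aldh9a1 (0.851) and Nup50 (0.813). Among the genes that followed Slc40a1 were Prpf4b (0.957) and Abr (0.940). Hmox1 was followed by Hcar2 (0.986), Cxcl2 (0.982) and Eif4h (0.981), which without T4 and T5 were at 0.909, 0.908 and 0.872, and of which Cxcl2 encodes a chemokine that draws neutrophils.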

How the data were processed

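RNA of 10 orthotopic tumors was sequenced from strand-specific libraries in pairs. The labels name CASAVA, FastQC, Trim Galore, STAR 2.7.0e and DESeq2, and GRCm39, while the methods name hg38 and RSEM. The strand setting of the counting is not given in the sources used here. The authors deposited a normalized signal per gene and tumor, gene counts divided by DESeq2 size factors, and 100.0% of values gave whole reads within 0.05 once the factor was undone. Depth ranged from 29192261 to 42122304 reads. GENCODE M21 (GRCm38) named 94.1% of the identifiers, and for 48081 the table's version was 1 above it, so positions and exon lengths are those of M21. Columns were assigned to groups by their letter, the T columns as the only other group.

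limma 3.58.1 (R 4.3.3) was fitted with a mean-variance trend on log2(normalized count + 1) over the 24560 genes with a mean of at least 1, and P values were adjusted by Benjamini-Hochberg. Fold changes on this scale understate low genes. edgeR 4.0.16, DESeq2 1.42.0 and limma-voom on the recovered reads, other scalings, pseudocounts and filters, and leaving out each tumor were alternatives, and leaving out T4 and T5 together and quotients by marker sums were added after seeing the data. Exact permutation of the group labels, two-sided, gave the p of ratios (scipy 1.17.1). Scripts were tested on simulated data. Members and lists were chosen with earlier results of these data known. Named genes were the members, the called genes of each list, the 2 smallest p per iron role, and the 3 genes most like Ftl1, Tfrc, Slc40a1 and Hmox1. A few items are not reported here. Replicates are independent by the series' design text.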

Additional observations from a re-analysis of the deposited data

Results flagged for a closer look

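The highest or lowest tumor of a group stood clear of the other 4 by Dixon's criterion for 5 values in 10 of 60 groups checked, where chance gives about 1 in 20. Of these, 5 were T4, 4 were N1 and 1 was T5. N1 was low among CTRL tumors in Slc11a2 (705 normalized counts), Aco1 (2401) and the log2 ratio of Aco1 to Ireb2 (-0.68), and high in Glrx3 (4661). T4 was high among D30 tumors in Ireb2 (4586), Glrx3 (8675), Blvrb (4084) and Nfu1 (4729), and low in the log2 ratio of Aco1 to Ireb2 (-1.90). T5 was high among D30 tumors in Zfp36 (7334).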

How the results depend on the processing

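Of the 10 members, 1 was called, and this count was 0 with library-size scaling, 2 with DESeq2 (Tfrc and Hmox1) and 0 to 2 when each tumor was left out, with 0 without N2 and 2 without T4 (Tfrc and Ireb2). Tfrc was called in 20 of the 22 alternatives, and its log2 fold change ran from 1.02 to 1.22 when each tumor was left out (limma, BH-adjusted p = 0.00346 to 0.0549). The 4 calls of other iron genes became 8 with DESeq2, 11 without T4 and T5 and 1 (without N2) to 8 (without T4) when each tumor was left out. Calls over all genes went from 678 to 1957 with DESeq2 (1135 higher), 2418 without T4 and T5, and 279 (without N2) to 1573 (without T4). The sign turned without T4 and T5 in Fth1 (-0.17), Slc11a2 (0.17), Slc40a1 (0.18) and Aco1 (0.093), and in Ncoa4 with library-size scaling (-0.21). When each tumor was left out Ncoa4 ran from -0.18 to 0.29 and Slc40a1 from -0.35 to 0.082. The difference in Tfrc to Slc40a1 was 1.10 by medians (exact permutation test, BH-adjusted p = 0.159) and 0.95 to 1.44 when each tumor was left out (exact permutation test, BH-adjusted p = 0.0212 to 0.0635). With a tumor left out, a ratio that alone has the smallest possible p gets 0.0635, so it could not pass. The groups did not overlap in these subsets either, which follows from the full groups and is no further support. For Tfrc to Fth1 the range was 0.29 to 1.03 and the value without T4 and T5 1.28. For Ftl1 to Fth1 it was -0.065 to 0.39, and for Aco1 to Ireb2 -0.14 to 0.53, with 0.61 without T4 and T5. The cause was not tested. No paired analysis was possible because the columns carry other numbers than the labels give their replicates. The sources used here describe no pairs of tumors either. By the methods, mice with tumors were randomized to the conditions, and the series' design text calls the replicates independent. With 5 tumors a group, members with wide spread in D30 could differ by the sizes their intervals hold without passing the test.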
